A study of Mus musculus with 11 samples.

Results

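Uncoupling proteins and other genes of thermogenesis in brown and beige fat were followed in epididymal white adipose tissue (eWAT) of mice with and without an active paternal Mest allele. A list of 10 genes was taken by gene symbol, and 9 of them had values in every mouse among the 15453 genes of the tables: Ucp2, Ucp3, Ppargc1a, Ppargc1b, Cidea, Dio2, Prdm16, Ckmt1 and Esrra. Ucp1 was not analysed here. The groups were 6 wildtype (WT) mice and 5 mice that inherited the inactivated Mest allele from the father (pKO), all of strain C57BL/6 (C57BL/6J in the study's methods), 16 weeks old and on a high fat diet from 8 weeks of age. All were males. Mest is imprinted and expressed from the paternal allele, and the inactivated allele lacks exon 3 in every tissue, so the design does not separate adipocytes from other cells of the fat pad. The pKO mice were leaner than their WT littermates in the study, so genotype and body fat cannot be told apart here.

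Brown and beige adipocytes burn fuel to make heat, and UCP1, which lets protons leak back across the inner mitochondrial membrane, is the protein they are best known for. UCP2 and UCP3 are related carriers of the same membrane that are found in other tissues, UCP2 widely and in immune cells, UCP3 mainly in skeletal muscle and brown fat. The coactivators PGC-1α and PGC-1β, the nuclear receptor ERRα and the regulator PRDM16 control mitochondrial and brown fat genes, and epididymal fat is a white depot in which the brown fat program is normally weak.

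Expression was measured by sequencing SAGE tags (SAGE stands for serial analysis of gene expression). A polyadenylated transcript gives 1 short tag, read beside its 3′-most site for the enzyme NlaIII, so levels of different genes can be compared without a correction for length. The tag that each gene should give was read from the GENCODE M21 transcripts (GRCm38), because it shows which part of each transcript was counted. Capitals mark the NlaIII site, the 23 bases after it are in lower case, and the length of this window was chosen here.

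Ucp2: CATGcaggcaaaacaactttattccac
Ucp3, transcript with the tag in the 3′ UTR: CATGtaaaaacataaaaataaaaagtt
Ucp3, transcript with the tag in coding sequence: CATGaacgctcccctaggcaggtaccg
Ppargc1a, transcript of 13 exons: CATGtattgttgtggttttattcattg
Ppargc1a, transcript of 11 exons: CATGaagacacacttaaaacctacaac
Prdm16: CATGgctcgtgtttagcggtcattatt
Dio2: CATGgtgcaaggagtcctgagccagtg
Ckmt1: CATGtggaatgagcgtttaggctacat
Esrra: CATGgggcaagccagggcccagagccc

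Each of these sequences occurred in transcripts of 1 gene. The Ucp2 tag lies at chr7:100501713-100501739 on the plus strand, in the 3′ UTR of exon 8 of 8, 308 bases from the transcript's end. For Ucp3, the neighbouring gene on the same strand, one transcript gives a tag at chr7:100486398-100486424 in the 3′ UTR, and the other gives one at chr7:100482666-100482692 in coding sequence. The genes Ucp3 (chr7:100472990-100486432) and Ucp2 (chr7:100493337-100502020) are 6904 bases apart. Ppargc1a (chr5:51454250-51567726, minus strand) also has 2 expected tags, so its value may join transcripts with different 3′ ends. The Prdm16 tag is shared by 6 of 6 transcripts, whereas the Ckmt1 tag lies in coding sequence of exon 7 of 9.

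Recovered depth was 9659740 to 14825727 tags per library, and every deposited value was a whole number of tags scaled by the size factor of that library, with 1 tag worth 0.836 to 1.19 normalised tags. Mest fell from 25107 ± 2672 normalised tags (SD, n = 6) in WT to 1663 ± 566 (SD, n = 5) in pKO mice. Its tag lies in exon 12 of 12, outside the deleted exon, so it reads the amount of transcript and not the deletion itself. All levels below are normalised tags, and all differences are pKO minus WT on the log2(value + 1) scale from a limma fit over all 15453 genes, with Benjamini-Hochberg adjustment over all of them.

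Ucp2 was the most abundant of the 9 genes and the one whose level fell in pKO mice. In WT mice its level was 1635 at the lowest, 1947 at the median and 2220 at the highest. The pKO mice had 910, 1790, 987, 847 and 1301. In 4 of 5 pKO mice the level was below that of every WT mouse, and pKO replicate 2, at 1790, lay within the WT range. The group means were 1953 ± 236 (SD, n = 6) and 1167 ± 389 (SD, n = 5), so that pKO mice had 59.8% of the WT level, a log2 difference of -0.79 with a 95% interval of -1.18 to -0.40. The unadjusted limma p was 0.00075 and an exact two-sided permutation test that ran through every division of the 11 mice into 6 and 5 gave p = 0.0043, where the smallest p the design allows is 0.0022. After adjustment over all genes the limma p was 0.27, above the study's threshold of 0.1. With its own test on these libraries, the study did call Ucp2 lower in pKO mice at that threshold. Its qRT-PCR also found lower Ucp2 in eWAT of pKO mice, but no significant difference in inguinal fat. By the threshold of 0.1, combined with a minimum mean of 50 in either genotype, 0 of the 9 genes were called by limma, beside 0.0324% of all genes. On the recovered counts edgeR also called 0 of the 9 genes and DESeq2 called 1, Ucp2. At an unadjusted p of at most 0.05 with the same minimum, Ucp2 was called lower and none of the other 8 genes was called in either direction, beside 3.7% of all genes called lower and 3.11% called higher (5.77% and 4.85% of the 9906 genes that reached the minimum). Of the 9 genes 4 reached it.

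Of the single mice left out in turn, pKO replicate 2 moved the Ucp2 difference and its limma call the most. Without it the log2 difference was -0.96, with an adjusted limma p of 0.0228, and 0.589% of all genes were then called at that threshold. DESeq2 on the recovered counts of all 11 mice gave Ucp2 an adjusted p of 0.041, where 0.783% of all genes were called. In this mouse Acta1, encoding skeletal muscle actin, was 219, compared with 16.4 to 59.0 in the other pKO mice and 41.5 to 66.1 in WT mice. The other 8 measured skeletal muscle markers summed to 97.4 there, below the 104 to 132 of the other pKO mice and within the WT range of 86.8 to 138, so the list as a whole was not raised. It was also the highest pKO mouse for Dio2, Ryr2 and Elovl3, each of which is described below. The part of these differences in the Ucp2 level was not tested.

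The spread of Ucp2 between mice far exceeded the error of counting. The coefficient of variation was 12.1% in WT and 33.4% in pKO mice, where counting alone would give 2.22% and 2.93%. At the other end of the range, Cidea had 1 to 10 tags per library, and counting alone would give 53.5% in WT mice, so differences in Cidea of ordinary size could not be detected at this depth.

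**Figure D1:**
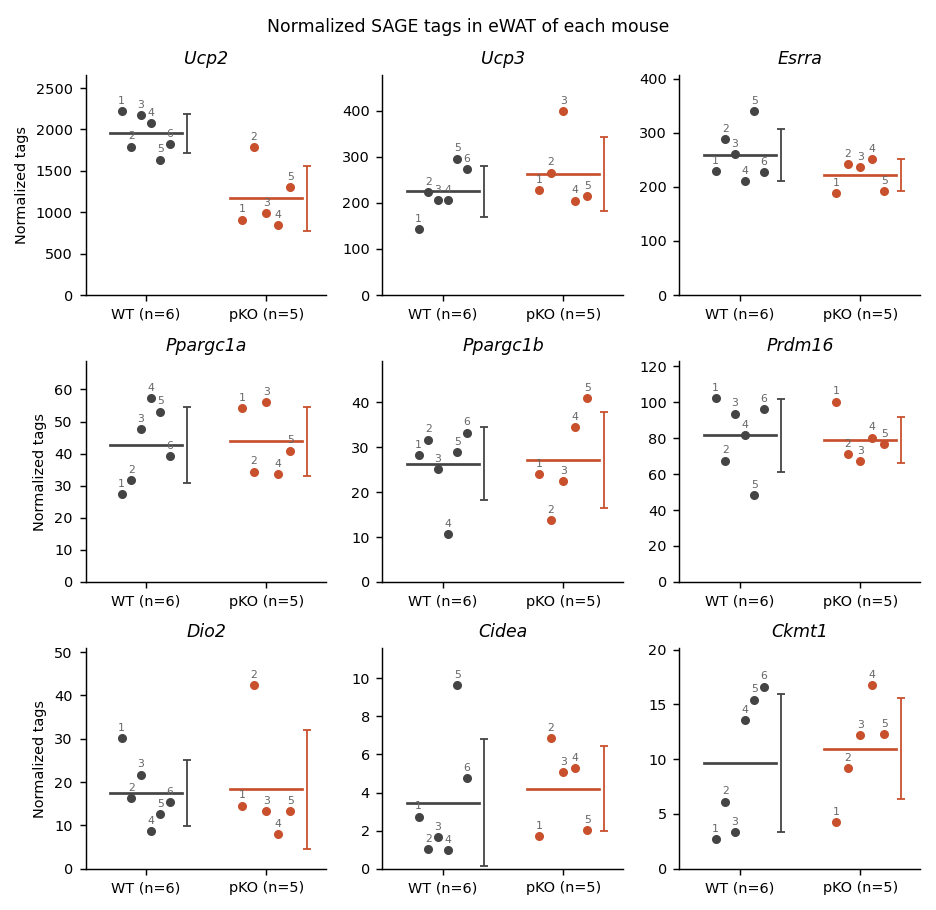
Normalised tags of the 9 genes in each mouse (1 numbered point a replicate, linear axes from 0), with horizontal bars at the means of 6 WT and 5 pKO mice and error bars of 1 SD. The Ucp2 points of 4 pKO mice lie below all WT points and pKO replicate 2 (1790) lies among them, and the groups overlap for every other gene.

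Ucp3 did not pass either threshold. Its WT levels ran from 143 through a median of 215 to 296, and the pKO mice had 227, 266, 399, 205 and 215, so the groups overlapped, with pKO replicate 3 above all others. The means were 225 ± 54.5 (SD, n = 6) and 262 ± 79.7 (SD, n = 5), a log2 difference of 0.21 with a 95% interval of -0.24 to 0.67 (limma adjusted p = 0.78, exact permutation p = 0.38). The interval leaves room for a rise of up to 1.59-fold and for a fall to 0.845 of the WT level.

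A direct comparison of both uncoupling proteins was made within each mouse, a test chosen after their values were seen. The ratio of Ucp2 to Ucp3 ran from 5.52 to 15.5 over WT mice, with a median of 9.05, and from 2.47 to 6.73 over pKO mice, with a median of 4.14. The mean log2 ratio was 3.14 ± 0.53 (SD) over the 6 WT mice and 2.14 ± 0.57 (SD) over the 5 pKO mice (exact permutation p = 0.017), and without pKO replicate 2 the difference was -1.16 (exact permutation p = 0.014). The ranges of the ratio overlapped between 5.52 and 6.73, and pKO replicate 2 held the highest pKO value.

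**Figure D2:**
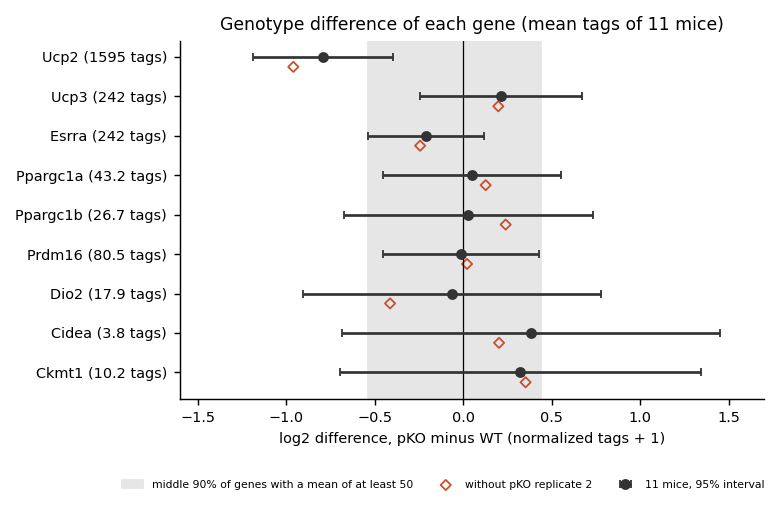
Log2 difference (pKO minus WT) of each gene with its 95% limma interval over 11 mice (filled circles) and the value without pKO replicate 2 (open diamonds), with the middle 90% of the 9906 genes at or above the minimum mean in grey. Ucp2 (-0.79) is the gene whose interval excludes 0, and the intervals of Cidea and Ckmt1 are the widest.

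Among the regulators, no gene passed either threshold, and their intervals differ in what they leave room for. Ppargc1a encodes PGC-1α, the coactivator that drives mitochondrial biogenesis and, in brown fat, the thermogenic program. Its level was 27.4, 43.4 and 57.3 at the lowest, median and highest in WT mice and 54.1, 34.4, 56.0, 33.5 and 40.9 in the pKO mice. The groups overlapped almost fully, and the log2 difference was 0.05 with a 95% interval of -0.46 to 0.55 (limma adjusted p = 0.97). Ppargc1b, encoding the related PGC-1β, had a WT range of 10.7 to 33.2 with a median of 28.6, and pKO levels of 24.0, 13.8, 22.4, 34.4 and 40.9. Here pKO replicates 4 and 5 were above every WT mouse and WT replicate 4 was below every other mouse, and the log2 difference was 0.03 with a 95% interval of -0.67 to 0.73 (limma adjusted p = 0.99). The ratio of Ppargc1a to Ppargc1b within a mouse differed by 0.02 on the log2 scale between genotypes (exact permutation p = 0.96).

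Esrra encodes ERRα, the orphan nuclear receptor through which PGC-1 coactivators switch on genes of oxidative metabolism. In WT mice its level was 211 at the lowest, 245 at the median and 340 at the highest, and the pKO mice had 189, 242, 237, 252 and 192. Only pKO replicates 1 and 5 lay below the WT range. The log2 difference was -0.21 with a 95% interval of -0.54 to 0.12 (limma adjusted p = 0.69, exact permutation p = 0.17), so a fall to 0.688 of the WT level lies within the interval. Prdm16, a zinc finger regulator of brown and beige adipocyte identity, had WT levels of 48.2 to 102 with a median of 87.6 and pKO levels of 100, 71.1, 67.2, 80.3 and 76.7. All pKO values fell inside the WT range, and the log2 difference was -0.01 with a 95% interval of -0.46 to 0.43 (limma adjusted p = 0.99).

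The enzymes and the lipid droplet protein of the list were the rarest. Dio2, the deiodinase that makes active thyroid hormone inside the cell, had WT levels of 8.74 to 30.1 with a median of 15.9. In pKO mice it was 14.6, 42.4, 13.2, 7.94 and 13.3, so that 4 pKO mice were below the WT median and pKO replicate 2 was above every other mouse. The log2 difference was -0.06 with all mice and -0.41 without pKO replicate 2, with unadjusted limma p-values of 0.87 and 0.23. Ckmt1, a mitochondrial creatine kinase of the creatine cycle proposed for beige fat, had 3 to 19 tags per library and a log2 difference of 0.32 with a 95% interval of -0.70 to 1.34. Cidea, a lipid droplet protein abundant in brown fat, had 42 tags in all 11 libraries together and a log2 difference of 0.38 with a 95% interval of -0.68 to 1.45. Neither gene's groups were separated, and the exact permutation p was 0.54 for Ckmt1 and 0.47 for Cidea.

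The order of the levels over all 11 mice was Ucp2 (mean 1595), Esrra (242), Ucp3 (242), Prdm16 (80.5), Ppargc1a (43.2), Ppargc1b (26.7), Dio2 (17.9), Ckmt1 (10.2) and Cidea (3.80). Ucp2 was above Esrra in 11 of 11 mice and Ucp3 was above Prdm16 in 11 of 11, and these were the 2 steps of the order at which the ranges did not meet. Esrra exceeded Ucp3 in 6 of 11 mice, Ppargc1a exceeded Ppargc1b in 7 of 11 and Dio2 exceeded Ckmt1 in 7 of 11. Ppargc1a and Ppargc1b had equal tags in WT replicate 2 (31 each) and pKO replicate 5 (40 each). The order of these neighbours thus did not hold in every mouse, and their differences in level were not tested. The 4 genes that reached the minimum mean for a call were Ucp2, Ucp3, Prdm16 and Esrra. Among all genes, Ucp2 stood at percentile 91.9 by mean level and Cidea at percentile 9.45.

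Markers that define brown fat were checked against this white depot. Of 7 such markers 4 were analysed, and their summed level was 93.2 to 173 in WT and 65.5 to 176 in pKO mice. Cox7a1, a muscle and brown fat subunit of cytochrome c oxidase, was 79.5 ± 28.6 (SD) over the 6 WT mice and 82.4 ± 37.8 (SD) over the 5 pKO mice, a log2 difference that rounds to 0. Cox8b, another such subunit, was 21.8 ± 6.37 in WT and 27.4 ± 20.4 in pKO mice, where pKO replicate 2 reached 61.9. Elovl3, a fatty acid elongase of brown fat, was 18.4 ± 8.35 in WT and 9.41 ± 7.88 in pKO mice. Its log2 difference was -1.05 (exact permutation p = 0.045, limma adjusted p = 0.48), but its mean was under the minimum of 50. The 13 adipocyte markers summed to 750425 to 1189680 in WT and 846445 to 1216580 in pKO mice, far above the sums of the brown fat markers in every mouse.

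**Figure D3:**
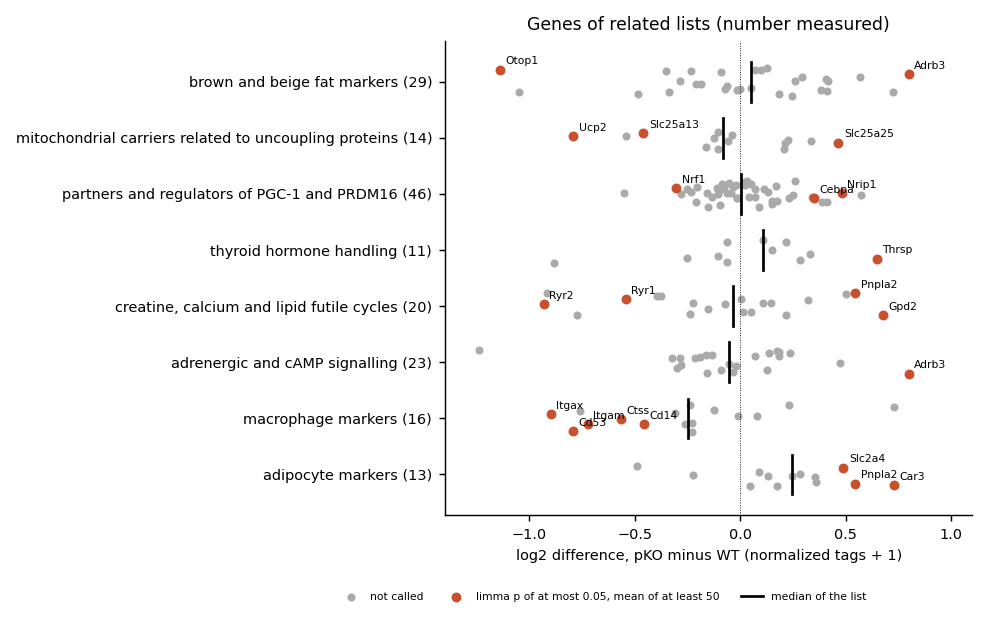
Log2 difference (pKO minus WT) of each measured gene of 8 related lists (1 point a gene), with genes called at the unadjusted limma threshold in orange and the median of each list as a bar. Medians lie between -0.25 for macrophage markers and 0.25 for adipocyte markers.

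In the wider list of brown and beige fat markers, 1 of 29 measured genes was called lower (Otop1) and 1 higher (Adrb3) at the unadjusted threshold, with a median log2 difference of 0.05 beside -0.0025 for all genes. Otop1, encoding a proton channel of brown and beige fat, was 75.3 to 168 in WT mice and 27.5, 102, 60.0, 52.1 and 58.3 in pKO mice. Its log2 difference was -1.14 (limma adjusted p = 0.28), and -1.36 without pKO replicate 2 (adjusted p = 0.073). Adrb3, the β3-adrenergic receptor through which noradrenaline starts lipolysis and thermogenesis, was 2530 ± 916 in WT and 4229 ± 1074 in pKO mice, a log2 difference of 0.80 (limma adjusted p = 0.40). Otop1 thus lay on the same side as Ucp2 and Adrb3 on the opposite side. Neither passed the adjusted threshold by limma over all mice, whereas DESeq2 called Otop1. The study's own test on these libraries also called Otop1 lower in pKO mice at a threshold of 0.1.

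Futile cycles of creatine, calcium and lipid can make heat without UCP1. Of 20 measured genes 2 were lower (Ryr1 and Ryr2, calcium release channels) and 2 higher (Gpd2 and Pnpla2), with a median log2 difference of -0.03. Gpd2, the mitochondrial glycerol 3-phosphate dehydrogenase, was 199 to 286 in WT and 341 to 461.95 in pKO mice, so the groups did not overlap, as held for 1.24% of all genes. Its log2 difference was 0.67 with a 95% interval of 0.37 to 0.98 (limma adjusted p = 0.19). Pnpla2, adipose triglyceride lipase, was 15211 ± 2173 in WT and 22446 ± 5023 in pKO mice, a log2 difference of 0.55 (limma adjusted p = 0.37). Ryr2 was 32.8 to 81.3 in WT mice and 18.0, 76.8, 25.4, 18.5 and 31.7 in pKO mice, with pKO replicate 2 again within the WT range.

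Of 14 mitochondrial carriers related to the uncoupling proteins, 2 were lower (Ucp2 and Slc25a13, an aspartate-glutamate carrier) and 1 was higher (Slc25a25, an ATP-Mg/phosphate carrier). The median log2 difference of this list was -0.08, so the size of the Ucp2 difference (-0.79) was the extreme of the list. Partners and regulators of PGC-1 and PRDM16 were measured for 46 genes, with 1 lower (Nrf1, a log2 difference of -0.30) and 2 higher (Nrip1, 0.48, and Cebpa, 0.35), and a median of 0.00. Nrip1 encodes RIP140, a corepressor of mitochondrial genes, Nrf1 an activator of such genes, and Cebpa an adipocyte transcription factor. In thyroid hormone handling 1 of 11 genes was higher (Thrsp, a lipogenic gene induced by thyroid hormone, 0.65) and 0 were lower by limma at an unadjusted p of at most 0.05. Adrenergic and cAMP signalling had 1 of 23 genes higher, again Adrb3, and the 3 CIDE genes had none in either direction. None of the genes in these lists, nor in the lists of brown fat markers and futile cycles, had a limma or edgeR adjusted p of at most 0.1 with all 11 mice. DESeq2 gave such a p to Ucp2, Otop1, Gpd2 and Pnpla2, and limma without pKO replicate 2 gave it to Ucp2, Otop1, Ryr2 and Gpd2. The unadjusted counts also moved without that mouse. They were 0 lower and 4 higher among the partners of PGC-1 and PRDM16, and 3 lower and 2 higher among the futile cycles. Thyroid hormone handling had 0 lower and 2 higher, adrenergic signalling 2 lower and 2 higher, and the brown and beige fat markers 1 lower and 2 higher. Counts over all genes rose as well, from 572 lower and 480 higher to 844 lower and 635 higher.

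Because UCP2 is also made by immune cells, macrophage markers were read beside it. In bulk tissue, fewer cells of a type and less RNA per cell cannot be told apart. At the unadjusted threshold 5 of 16 macrophage markers were lower in pKO mice (Cd14, Cd53, Ctss, Itgam and Itgax) and none was higher. Of all genes 3.7% were called lower and 3.11% higher. The log2 difference of Emr1 was -0.01 and that of Tyrobp, the highest, 0.73. The median of the 16 markers was -0.25, with 13 below 0 and 3 above. Without pKO replicate 2, 5 were lower and 0 higher, of which 4 were shared with the fit over all mice: Itgax was no longer called and Mrc1 was added. By limma, edgeR and DESeq2 no macrophage marker had an adjusted p of at most 0.1 with all mice. The study's qRT-PCR over its full cohort found lower Itgam and Itgax in eWAT of pKO mice. For Emr1, Cd68 and Cd163 the study reported no difference between genotypes. The summed level of the list ranged from 11230 to 19866 over WT mice, with 16118 as its median, and from 10350 to 14126 over pKO mice, with 13267 as its median, and no marker of the list was at 0 in all libraries. Itgam, the integrin CD11b, was 338 ± 66.1 (SD) over the 6 WT mice and 211 ± 67.6 (SD) over the 5 pKO mice, a log2 difference of -0.72 (limma adjusted p = 0.37). In pKO replicate 2, whose Ucp2 level was in the WT range, the macrophage sum was 13815, within the ranges of both the other pKO mice and the WT mice. Single markers differed in this mouse: 7 of the 16, among them Itgam (285), Cd53 and Cd68, were higher than in every other pKO mouse, and 10 of the 16 lay within the WT range. The latter was not particular to this mouse. Most markers of pKO replicate 4, the mouse with the lowest Ucp2 (847), also lay within the WT range. Its macrophage sum (14126) was the highest of the pKO mice. Among WT mice, replicate 5 had both the lowest Ucp2 (1635) and the lowest macrophage sum (11230). WT replicate 6 had the highest sum (19866) but a Ucp2 level (1821) below the WT median. The part of the macrophage markers in the Ucp2 difference was not tested. Of 10 T and B cell markers none was called in either direction, whereas 3 of 13 adipocyte markers were higher (Car3, Pnpla2 and Slc2a4) with a median of 0.25. Of 8 endothelial markers 1 was higher (Kdr), and of 9 skeletal muscle markers and 2 epididymis or germ cell markers none was called.

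Between mice of the same genotype, no pair of the 9 genes varied together past the adjusted threshold. Correlations were computed over 11 mice for all 36 pairs after removing the genotype means, and none reached an adjusted p of 0.05. The strongest pair was Prdm16 with Esrra (Pearson's r = -0.78, exact permutation p = 0.010, Spearman's rho = -0.66, exact permutation p = 0.040, adjusted p = 0.35), and r was -0.57 without the 2 mice farthest from the median of Prdm16. Ucp2 with Dio2 gave r = 0.76 (exact permutation p = 0.019, rho = 0.65, exact permutation p = 0.035, adjusted p = 0.35), with r = 0.48 in WT and 0.88 in pKO mice alone. The coefficient was 0.71 without the 2 mice farthest from the median of Ucp2. That median is the value of pKO replicate 2, so this check kept the mouse with the highest Dio2. Ucp2 with Ucp3 gave r = -0.21 (exact permutation p = 0.59, rho = -0.12, exact permutation p = 0.77, adjusted p = 0.89), and r was -0.69 without the 2 mice farthest from the median of Ucp2, so this coefficient depended on the mice included. Ppargc1a with Ppargc1b gave r = -0.37 (exact permutation p = 0.31, rho = -0.49, exact permutation p = 0.13, adjusted p = 0.74), and -0.12 without the 2 mice farthest from the median of Ppargc1a.

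**Figure D4:**
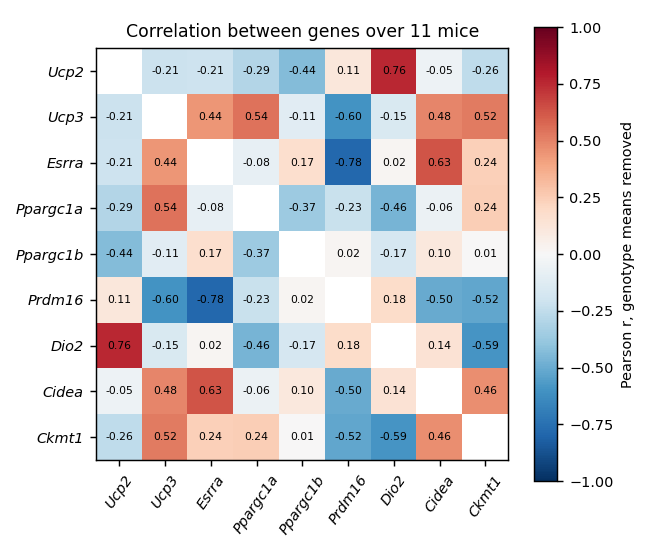
Pearson's r over 11 mice for each pair of the 9 genes after removal of genotype means (colour scale from -1 to 1). Prdm16 with Esrra (-0.78) and Ucp2 with Dio2 (0.76) are the strongest of the 36 pairs.

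Among the 9906 genes at or above the minimum mean, those whose levels followed Ucp2 most closely over 11 mice with genotype means removed were Ryr2 (r = 0.94), Deptor (r = 0.92) and Mal2 (r = 0.92). Each coefficient was lower without pKO replicate 2, at 0.83, 0.84 and 0.81. These are the highest coefficients of a search over 9906 genes, so they have no p and are given as a description. Deptor, an inhibitor of mTOR, was 678 ± 31.7 in WT and 623 ± 151 in pKO mice, a log2 difference of -0.15 (limma adjusted p = 0.77). Mal2, a membrane protein of vesicle transport, was 137 ± 18.4 in WT and 113 ± 55.5 in pKO mice. Ryr2 was the one among them that passed the unadjusted threshold (exact permutation p = 0.043, limma adjusted p = 0.43).

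**Figure D5:**
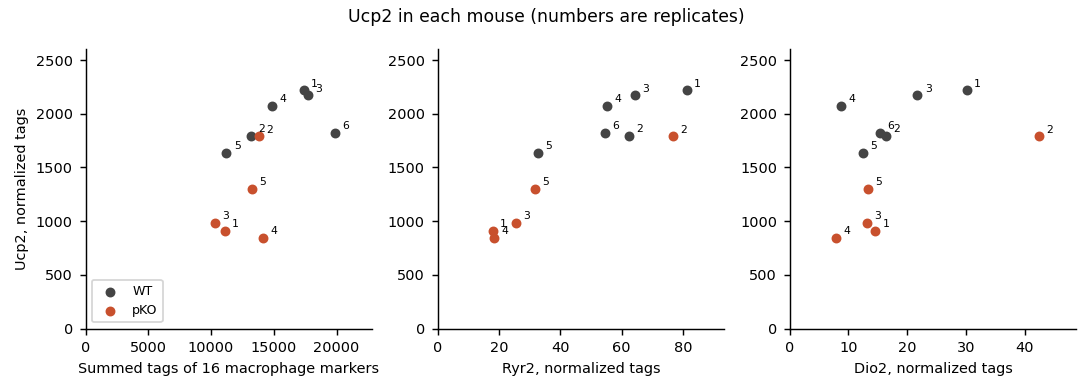
Ucp2 of each mouse (normalised tags, 1 point a mouse numbered by replicate, coloured by genotype) against the summed level of 16 macrophage markers, Ryr2 and Dio2 (all normalised tags, linear axes). The pKO mouse with the highest Ucp2 (1790) is pKO replicate 2, which also has the highest Dio2 of all mice (42.4).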

How the data were processed

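RNA of whole eWAT from 11 mice was sequenced as SOLiD SAGE tags cut at NlaIII sites. The authors assigned tags to genes of the mm10 build with SOLiD SAGE analysis software that they had modified. The submitters' notes name edgeR (version 3.2.3). The study's methods name DESeq for the raw counts, SAM for significance and edgeR for pairwise analysis. The rule by which 15453 genes were kept is not given in the sources used here. The deposited values are a normalised signal: counts of tags over the size factor of each library. All (100%) were whole multiples of the value of 1 tag within 0.01, so whole counts were recovered for the count tests.

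Differences were fitted with limma (version 3.58.1, R 4.3.3, trended empirical Bayes) on log2(value + 1), as the deposited values are not counts. A call needed a mean of at least 50 in a genotype and an adjusted p of at most 0.1 (or, as a looser threshold, 0.05 unadjusted). Exact permutation tests over all splits into 6 and 5 mice were two-sided, and their smallest p is 0.0022. Correlations were permuted within genotype and adjusted over 36 pairs. The alternatives were total-count, TMM and median-of-ratios scaling, pseudocounts of 0.5 and 10, a filter of 10 tags in every library, limma without trend, robust limma and limma-voom, edgeR (4.0.16) and DESeq2 (1.42.0) on recovered counts, a replicate block and each mouse left out. The median-of-ratios size factors matched those of the deposited values, so that alternative repeated the main scaling. The fits were tested on simulated data with the same spread for all genes and changes larger than that of Ucp2. This run therefore does not measure their power for Ucp2.

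The genes and lists were chosen with earlier results of these data known. Genes outside the 9 were named from fixed lists, up to 3 in each direction by smallest unadjusted p, together with all brown fat defining markers and the 3 genes most like Ucp2 and Cidea. The labels name no batch, and no library was a repeat of another (chi-square per degree of freedom at least 19.0). Intervals cover the spread between mice. Sequences and positions came from GENCODE M21 (GRCm38), and the tags of genes on chromosome 18 were not printed.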

Additional observations from a re-analysis of the deposited data

Results flagged for a closer look

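In 68 groups of 5 or 6 mice, the gap between an extreme mouse and its nearest neighbour exceeded Dixon's 95% value 4 times, where chance alone gives about 1 in 20 groups, or 3.4. Ppargc1b was 10.7 in WT replicate 4, against 25.1 to 33.2 in the other WT mice. Dio2 was 42.4 in pKO replicate 2, against 7.94 to 14.6 in the other pKO mice. Ryr2 was 76.8 in the same mouse, against 18.0 to 31.7 in the other pKO mice. Slc25a13 was 171 in WT replicate 4, against 123 to 134 in the other WT mice.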

How the results depend on the processing

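Ucp2 was the gene with an unadjusted p of at most 0.05 in 23 of 23 alternatives, and none of the other genes reached it in any. Among these alternatives, median-of-ratios scaling repeated the main scaling. Its log2 difference ran from -0.96 (without pKO replicate 2) to -0.69 (without pKO replicate 4), and its adjusted p from 0.0228 to 0.60. The number of the 9 genes with an adjusted p of at most 0.1 was 0 with limma and 1 with DESeq2, and leaving out each mouse in turn gave 0 to 1. Over all genes, that threshold called 5 genes with limma, 121 with DESeq2, 91 without pKO replicate 2, 12 without WT replicate 5, 11 with the filter of 10 tags and 3 in each of the fits that left out another WT mouse or pKO replicate 1. With total-count scaling, 726 genes were lower and 330 higher at the unadjusted threshold, compared with 572 and 480, and the median of all genes was -0.036. The cause was not tested.

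Directions turned only for genes near 0. Ppargc1b was -0.0028 with total-count scaling, and Dio2 was 0.028 with edgeR and 0.043 with DESeq2. When single mice were left out, the log2 difference of Ppargc1a ran from -0.065 to 0.14, that of Ppargc1b from -0.20 to 0.24, that of Dio2 from -0.41 to 0.16 and that of Prdm16 from -0.15 to 0.060.

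The deviations of 5 same-numbered pairs correlated at -0.092 to 0.14 (mean -0.024). These values showed no pairing of mice by replicate number, but 5 low correlations cannot settle whether mice were paired. A replicate block in the limma fit, which drops WT replicate 6, gave Ucp2 a log2 difference of -0.81 (adjusted p = 0.60) and Prdm16 0.042, and called 1 gene over all.

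The filter of 10 tags in every library gave no value for Cidea, Dio2 and Ckmt1, and DESeq2 gave Cidea no adjusted p. Ckmt1 with 3 to 19 tags a library and Cidea with 1 to 10 are limited by depth.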

Other observations

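Among the 9906 genes with a sufficient mean (50 in either genotype), those whose levels followed Cidea most closely over 11 mice with genotype means removed were Med28 (r = 0.88), Stx2 (r = 0.87) and Grb10 (r = 0.84). These coefficients rest on 42 Cidea tags in all and are given as a description.

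Of 11 mesothelial and epithelial markers, 4 were higher in pKO mice at an unadjusted limma p of at most 0.05 (Krt14, Krt19, Msln and Upk1b) and none was lower. Of all genes 3.11% were called higher and 3.7% lower. The median log2 difference of the list was 0.57. The keratin gene Krt19 was 374 ± 81.3 (SD) over the 6 WT mice and 610 ± 77.6 (SD) over the 5 pKO mice, with no overlap of the groups, a log2 difference of 0.73 (limma adjusted p = 0.25). The summed level of this list was 1214 to 1798 in WT and 1480 to 3260 in pKO mice. In pKO replicate 2 it was 2079. By adjusted p, DESeq2 called 3 of these markers (Krt14, Krt19 and Upk1b) and limma called 0.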
